A study of Homo sapiens with 6 samples.

Results

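The malate-aspartate shuttle moves reducing equivalents of NADH from the cytosol into mitochondria. Transcripts for its enzymes and carriers were followed in DMS114 cells, a human cell line established from small cell lung cancer. Cells were given β-alanine at 2.5 mM for 48 h, or vehicle in matching volume as the control, and 3 libraries were sequenced per group. The genes were chosen by symbol: GOT1, GOT2, MDH1, MDH2, SLC25A11, SLC25A12, SLC25A13 and GPT2. All 8 were among the 36458 symbols of the count table, and all 8 passed the filter on low counts that left 17331 genes for testing. The labels name no mutation, transgene or clone, and do not say whether libraries came from different cultures. The p-values below therefore reflect library-to-library spread alone, which may be technical.

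In the shuttle, the cytosolic malate dehydrogenase MDH1 uses NADH to turn oxaloacetate into malate, which enters the matrix through the malate/2-oxoglutarate carrier SLC25A11. MDH2, the matrix enzyme, turns malate back into oxaloacetate and regenerates NADH. The matrix aminotransferase GOT2 converts oxaloacetate to aspartate, the calcium-binding carriers SLC25A12 (aralar) and SLC25A13 (citrin) exchange this aspartate for glutamate across the inner membrane, and the cytosolic aminotransferase GOT1 closes the cycle. GPT2 is the mitochondrial alanine aminotransferase. It is not part of the cycle itself, but interconverts glutamate and 2-oxoglutarate in the same compartment.

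Total counts ran from 14433801 to 32909568 in the β-alanine libraries and from 18814876 to 22072654 in the controls. β-alanine library 1, the shallowest, stood apart: its first principal component score was -9.13, while β-alanine libraries 2 and 3 scored -23.52 and -23.61 and the controls 16.71 to 20.02. On the second component it scored 27.22, and all other libraries scored -9.13 to 1.26. The labelled cell type was checked against 16 markers of small cell lung cancer and neuroendocrine cells, of which 9 averaged at least 1 CPM. SYP, ENO2, CHGA and CHGB were present, with CHGA the lowest of these at 24.2 CPM, whereas the defining factors POU2F3 and INSM1 averaged 0.229 and 0.197 CPM and YAP1 averaged 126 CPM. Leukocyte and endothelial lists summed to at most 0.255 CPM in any library. Of the 6 fibroblast genes, 5 averaged at least 1 CPM, led by COL3A1 at 784 CPM and DCN at 175 CPM. COL1A2 averaged 0.0813 CPM and PDGFRA 2.35 CPM. The 6 summed to 882 to 982 CPM after β-alanine and 1118 to 1161 CPM in controls. The list of 16 small cell lung cancer and neuroendocrine markers includes YAP1. It summed to 440.5 to 486 CPM after β-alanine and 402 to 408 CPM in controls. The part of either shift in the results below was not tested.

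The sequence before the start of the 4 genes that changed is shown because GOT1 and SLC25A12 changed in one direction and GOT2 and MDH1 in the other. Each run holds the 250 bases before the RefSeq start (GRCh38.p14), printed 5′ to 3′ on the gene's strand. Capitals mark every match, on either strand, to any of 10 motif strings: GGGCGG (SP1), GCGC and TGCGC separated by 1 base (NRF1), CCGGAAG (ETS), CACGTG (E-box), TGATGNAA (ATF4), TGACGTCA (CRE), GCGNGGGCG (EGR1), TGANTCA (AP-1), AAAGGTCA (NBRE) and CCAAT.
GOT1, chr10:99430625-99430874, minus strand: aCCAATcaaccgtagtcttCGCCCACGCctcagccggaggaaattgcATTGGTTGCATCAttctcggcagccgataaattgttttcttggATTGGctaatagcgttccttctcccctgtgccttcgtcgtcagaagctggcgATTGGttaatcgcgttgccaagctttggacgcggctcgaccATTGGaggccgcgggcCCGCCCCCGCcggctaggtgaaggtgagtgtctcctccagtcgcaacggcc
SLC25A12, chr2:171894245-171894494, minus strand: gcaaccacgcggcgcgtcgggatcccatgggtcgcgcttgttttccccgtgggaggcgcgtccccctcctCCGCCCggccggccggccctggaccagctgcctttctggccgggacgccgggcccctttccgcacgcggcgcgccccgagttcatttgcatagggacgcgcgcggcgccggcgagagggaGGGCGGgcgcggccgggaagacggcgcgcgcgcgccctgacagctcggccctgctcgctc
GOT2, chr16:58734317-58734566, minus strand: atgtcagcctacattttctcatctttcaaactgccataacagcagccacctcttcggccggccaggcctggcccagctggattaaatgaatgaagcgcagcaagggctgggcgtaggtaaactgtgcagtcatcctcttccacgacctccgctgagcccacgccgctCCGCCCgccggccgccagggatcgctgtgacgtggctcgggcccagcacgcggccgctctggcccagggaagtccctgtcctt
MDH1, chr2:63588713-63588962, plus strand: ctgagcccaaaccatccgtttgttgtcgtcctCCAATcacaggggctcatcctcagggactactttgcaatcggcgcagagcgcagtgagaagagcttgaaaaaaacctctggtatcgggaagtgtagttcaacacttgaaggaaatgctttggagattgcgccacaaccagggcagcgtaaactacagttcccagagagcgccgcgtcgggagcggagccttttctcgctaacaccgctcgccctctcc

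The GOT1 window held 5 CCAAT strings, 4 of them on the opposite strand. Of 34943 windows of the same length before RefSeq starts, 32.0% held at least 1 CCAAT and 0.321% held at least 5. The second share was worked out for CCAAT in GOT1 alone, with the cut taken from its own matches. GOT1 also held 1 ATF4 string, 2 EGR1 strings and 1 SP1 string, where 3.15%, 8.39% and 42.5% of windows held at least 1 string of that kind. The SP1 string overlapped the EGR1 string nearer the start. SLC25A12 held 2 SP1 strings, GOT2 held 1 SP1 string and MDH1 held 1 CCAAT. Of the genes that were not called, MDH2 held 2 ETS strings, SLC25A11 held 1 NRF1, 1 ATF4 and 1 EGR1 string, and SLC25A13 held 1 SP1, 1 E-box and 1 CCAAT string. No CRE, AP-1 or NBRE string was found in the windows of the 7 genes in the promoter table, which has no entry for GPT2 and a second one for MDH1 with no match. These matches describe letters only.

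Within the aspartate aminotransferase pair, the cytosolic transcript rose and the mitochondrial one fell. GOT1 had 57.5, 65.7 and 62.5 CPM in β-alanine libraries 1, 2 and 3, against 47.2, 44.5 and 49.6 CPM in control libraries 1, 2 and 3. CPM stands for counts scaled to a common library total after TMM normalisation. In bulk RNA, fewer cells that express a gene and less RNA per cell cannot be told apart. All 3 treated libraries lay above all 3 controls, with β-alanine library 1 the lowest of the treated. GOT1 averaged 61.9 ± 4.14 CPM with β-alanine and 47.1 ± 2.54 CPM in controls (SD, n = 3 each), a log2 fold change of 0.40 ± 0.06 (SE) or 32.2% (edgeR quasi-likelihood adjusted p = 2.33e-05). GOT2 had 57.8, 58.9 and 58.3 CPM after β-alanine, against 77.9, 77.7 and 72.1 CPM in controls. The treated libraries were close together and all lay below the controls. GOT2 averaged 58.3 ± 0.544 CPM with β-alanine and 75.9 ± 3.29 CPM in controls (SD, n = 3 each), a log2 fold change of -0.38 ± 0.05 (SE), so that GOT2 fell by 23.1% (edgeR quasi-likelihood adjusted p = 7.43e-06).

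Over the 8 genes, 2 rose (GOT1 and SLC25A12) and 2 fell (GOT2 and MDH1), at a threshold of 0.05 on the adjusted p. Over all tested genes 27.9% were called, 14.1% higher and 13.8% lower, and whether 4 of 8 differs from that share was not tested. The median log2 fold change was -0.06 for the 8 genes and -0.0032 for all tested genes. The groups did not overlap in CPM for the 4 genes called, and overlapped for the other 4, while 39.1% of all tested genes had groups that did not overlap, 19.9% with β-alanine above and 19.2% with β-alanine below the controls.

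**Figure D1:**
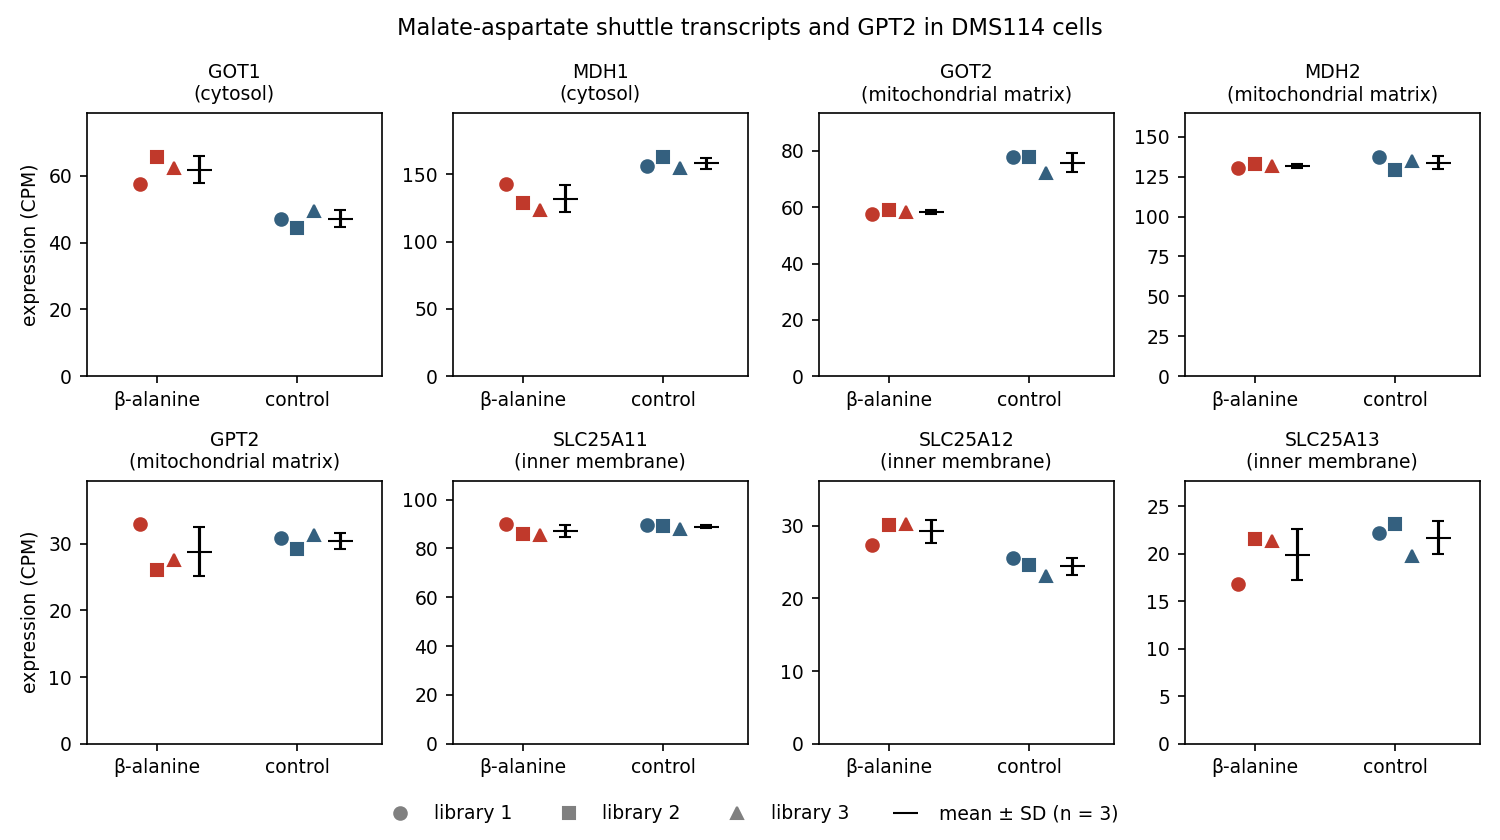
Expression in CPM of each of the 8 genes in the 3 β-alanine libraries (red) and the 3 control libraries (blue), with the compartment of the protein above each panel and the mean ± SD in black. GOT1 and SLC25A12 lay higher in all 3 treated libraries than in any control, GOT2 and MDH1 lay lower, and the groups overlapped for MDH2, GPT2, SLC25A11 and SLC25A13.

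Of the malate dehydrogenases, the cytosolic transcript fell. MDH1 had 143, 129 and 124 CPM in β-alanine libraries 1, 2 and 3, against 156, 163 and 155 CPM in control libraries 1, 2 and 3. The groups did not overlap, and β-alanine library 1 was the treated library nearest the controls. MDH1 averaged 132 ± 9.84 CPM after β-alanine and 158 ± 4.27 CPM in controls (SD, n = 3 each), a log2 fold change of -0.27 ± 0.05 (SE), so that MDH1 fell by 17.0% (edgeR quasi-likelihood adjusted p = 0.00024). MDH2 had 130, 133 and 131 CPM after β-alanine, against 137, 129 and 135 CPM in controls. Every treated value lay inside the range of the controls. The log2 fold change of MDH2 was -0.02 ± 0.04 (SE), with an approximate 95% interval of -0.10 to 0.06 (edgeR quasi-likelihood adjusted p = 0.734), so a change of the size seen for MDH1 lies outside that interval.

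Of the inner membrane carriers, SLC25A12 rose. It had 27.4, 30.1 and 30.2 CPM in β-alanine libraries 1, 2 and 3, against 25.5, 24.6 and 23.1 CPM in control libraries 1, 2 and 3. The groups did not overlap, although β-alanine library 1 and control library 1 lay close together. SLC25A12 averaged 29.2 ± 1.62 CPM after β-alanine and 24.4 ± 1.22 CPM in controls (SD, n = 3 each), a log2 fold change of 0.27 ± 0.07 (SE) or 20.5% (edgeR quasi-likelihood adjusted p = 0.00504). Its paralogue SLC25A13 had 16.8, 21.6 and 21.3 CPM after β-alanine, against 22.2, 23.1 and 19.8 CPM in controls. Only β-alanine library 1 lay below every control. SLC25A13 had a log2 fold change of -0.10 ± 0.09 (SE), with an approximate 95% interval of -0.27 to 0.07 (edgeR quasi-likelihood adjusted p = 0.429), and without β-alanine library 1 the fold change was -0.02.

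SLC25A11 had 89.9, 85.9 and 85.4 CPM in β-alanine libraries 1, 2 and 3, against 89.4, 89.0 and 88.2 CPM in control libraries 1, 2 and 3. β-alanine library 1 lay above the controls and the other two below them. The log2 fold change of SLC25A11 was -0.03 ± 0.04 (SE), with an approximate 95% interval of -0.12 to 0.05 (edgeR quasi-likelihood adjusted p = 0.628). GPT2 had 32.9, 26.0 and 27.6 CPM after β-alanine, against 30.9, 29.2 and 31.4 CPM in controls. As for SLC25A11, β-alanine library 1 was above every control and libraries 2 and 3 were below. GPT2 had a log2 fold change of -0.10 ± 0.08 (SE) with all libraries, with an approximate 95% interval of -0.25 to 0.05 (edgeR quasi-likelihood adjusted p = 0.369). Without β-alanine library 1 it was -0.19, with an adjusted p of 0.0209 in the same edgeR quasi-likelihood test, so the absence of a call for GPT2 depended on that library.

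Ratios of paralogues within a library need no scaling of the libraries. GOT1 over GOT2 and MDH1 over MDH2 set the cytosolic against the mitochondrial enzyme, while SLC25A12 over SLC25A13 compares carriers of the inner membrane. The count of GOT1 over that of GOT2 was 0.995, 1.12 and 1.07 in β-alanine libraries 1, 2 and 3, against 0.606, 0.573 and 0.688 in control libraries 1, 2 and 3. GOT1 therefore gave 49.9% to 52.8% of the reads of the pair after β-alanine and 36.4% to 40.8% in controls. The mean log2 ratio was 0.08 ± 0.08 with β-alanine and -0.69 ± 0.14 without it (SD, n = 3 each), a difference of 0.77 or 1.71-fold. MDH1 over MDH2 was 1.10, 0.968 and 0.942 after β-alanine, against 1.14, 1.26 and 1.15 in controls, a log2 difference of -0.24. The move of this pair was thus in the other direction, with β-alanine library 1 close to the controls. SLC25A12 over SLC25A13 was 1.62, 1.40 and 1.42 after β-alanine, against 1.15, 1.06 and 1.17 in controls, a log2 difference of 0.39.

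For each of the 3 ratios the groups did not overlap, and the exact two-sided permutation test gave p = 0.1 (0.1 after Benjamini-Hochberg adjustment over the 3 ratios). This is the smallest p that the 20 assignments of 3 against 3 libraries allow, so this design cannot reach the threshold of 0.05. Since the genes were chosen with results of these data known, the missing overlap is not independent support.

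**Figure D2:**
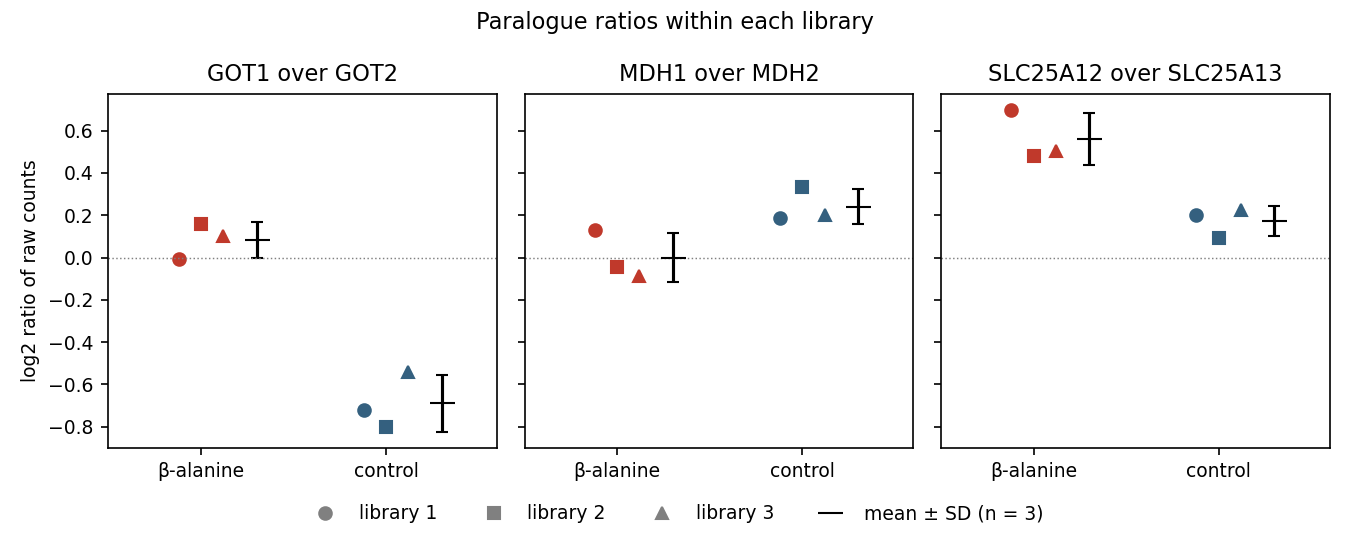
Log2 ratio of raw counts for GOT1 over GOT2, MDH1 over MDH2 and SLC25A12 over SLC25A13 in each β-alanine library (red) and each control library (blue), with the mean ± SD in black and equal counts at the dotted line. GOT1 over GOT2 averaged 0.08 after β-alanine and -0.69 in controls, and MDH1 over MDH2 moved the other way.

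Summed over the genes of a compartment, CPM was lower after β-alanine for the cytosolic enzymes and for the matrix enzymes. GOT1, which rose, and MDH1, which fell, together summed to 194 ± 7.04 CPM after β-alanine and 205 ± 1.99 CPM in controls (SD, n = 3 each). The matrix enzymes GOT2, MDH2 and GPT2 summed to 219 ± 2.00 CPM after β-alanine and 240 ± 5.39 CPM in controls, and GOT2 held most of that difference. The carriers summed to 136 ± 1.87 CPM after β-alanine and 135 ± 3.41 CPM in controls. The cytosolic sum was 186 to 200.3 CPM in treated libraries and 204 to 207 CPM in controls. The matrix sum was 217 to 221 CPM in treated libraries and 236 to 246 CPM in controls. Neither overlapped, and nor did the groups for 39.1% of all single genes tested. The carrier sums overlapped, with 134 to 138 CPM in treated libraries and 131 to 137 CPM in controls. No test was made on these sums.

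To compare levels between genes, CPM was divided by the merged exon length of all GENCODE release 29 isoforms. The length of the mRNA present in these cells was not measured, so the order below depends on the length used. Before this division MDH1 was the highest in controls, with 158 CPM, against 134 CPM for MDH2 and 88.9 CPM for SLC25A11. In controls the order from high to low was MDH2 (36.7 ± 1.17 CPM per kb), SLC25A11 (33.3 ± 0.242), MDH1 (31.7 ± 0.855), GOT2 (20.2 ± 0.874), GOT1 (14.0 ± 0.755), SLC25A13 (5.85 ± 0.464), GPT2 (4.79 ± 0.182) and SLC25A12 (4.72 ± 0.237, all SD, n = 3). Only the neighbours GPT2 and SLC25A12 overlapped between libraries in the control order. After β-alanine, GOT1 stood above GOT2, with 18.4 ± 1.23 and 15.5 ± 0.145 CPM per kb, and these 2 genes did not overlap between libraries. Without the division by length they did overlap, with 57.5 CPM for GOT1 and 57.8 CPM for GOT2 in β-alanine library 1. SLC25A12 stood above SLC25A13 and GPT2 after β-alanine, with 5.65 ± 0.314, 5.37 ± 0.719 and 4.54 ± 0.569 CPM per kb, but neighbours among these 3 overlapped. MDH2, SLC25A11 and MDH1 remained the 3 highest in both groups.

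**Figure D3:**
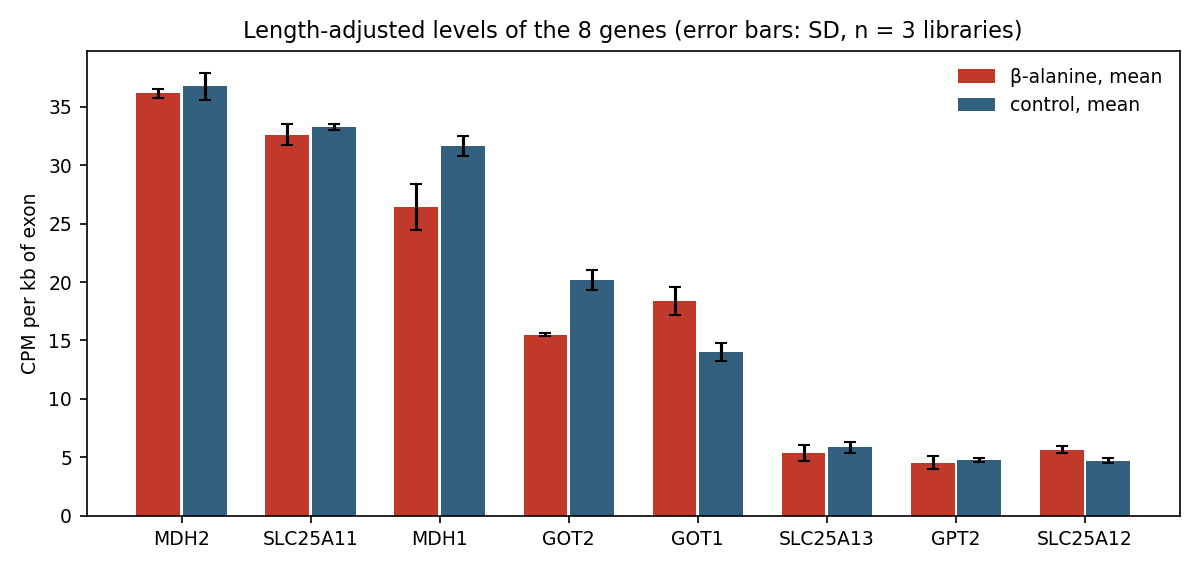
Mean CPM per kb of exon for the 8 genes after β-alanine (red) and in controls (blue), ordered by the control level, with SD over 3 libraries as error bars. GOT2 lay above GOT1 in controls (20.2 and 14.0 CPM per kb) and below it after β-alanine (15.5 and 18.4 CPM per kb). The order of the genes depends on the exon length used.

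GOT1 lies on chromosome 10 from 99396870 to 99430624, GOT2 on chromosome 16 from 58707131 to 58734316, MDH1 on chromosome 2 from 63588963 to 63607197 and SLC25A12 on chromosome 2 from 171783405 to 171894244 (GRCh38.p14, RefSeq). MDH2 lies on chromosome 7 from 76048106 to 76067508, SLC25A13 on chromosome 7 from 96120220 to 96322098, SLC25A11 on chromosome 17 from 4937130 to 4940046 and GPT2 on chromosome 16 from 46884362 to 46931289. Exons of 5 of the 8 genes overlap exons of a gene on the opposite strand in GENCODE release 29, and the counting is not stated to use strand, so reads from the shared bases cannot be told apart. SLC25A12 shares 181 exon bases with METAP1D, a mitochondrial methionine aminopeptidase, which fell while SLC25A12 rose. These bases lie outside the RefSeq span given above, because GENCODE carries SLC25A12 on to base 171999859. METAP1D averaged 13.6 ± 0.0832 CPM after β-alanine and 17.0 ± 1.00 CPM in controls (SD, n = 3 each), with a log2 fold change of -0.33 ± 0.08 (SE) and an edgeR quasi-likelihood adjusted p of 0.00468. SLC25A11 shares 244 exon bases with the ubiquitin ligase gene RNF167, which rose by a log2 of 0.26 ± 0.05 (edgeR quasi-likelihood adjusted p = 0.00121) while SLC25A11 was not called.

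The upstream noncoding transcript AL391684.1 shares 651 exon bases with GOT1. They too lie outside the RefSeq span, because GENCODE carries GOT1 on to base 99431569. It averaged 7.76 ± 1.35 CPM after β-alanine and 6.29 ± 0.959 CPM in controls (SD, n = 3 each), with overlapping groups and an edgeR quasi-likelihood adjusted p of 0.065. MDH1 shares 191 bases with the cilium gene WDPCP, which averaged 6.09 ± 0.398 CPM after β-alanine and 6.62 ± 0.131 CPM in controls and was not called. GOT2 shares 162 bases with AC092378.1, which had at most 9 counts in any library. MDH1 and GOT2 also have processed pseudogenes, of which GOT2P3 had 0 counts in every library, and reads shared with such copies are uncertain. The start of MDH2 lies 47 bases from that of STYXL1, which is read in the other direction. STYXL1 averaged 17.2 ± 0.434 CPM after β-alanine and 19.7 ± 0.0339 CPM in controls (SD, n = 3 each). It was not called (edgeR quasi-likelihood adjusted p = 0.0575), although every treated library lay below every control, as for 19.2% of all tested genes.

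Genes with the most similar profile were sought among 10826 other tested genes of at least 3 on the mean log2 CPM scale, by the root-mean-square distance of mean-centred log2 CPM over the 6 libraries. They were ARHGEF3 and CCDC186 for GOT1 (distances 0.0231 and 0.024), RIOK2 and FAM86C2P for GOT2 (0.0198 for each), PTPRS and IPO8 for MDH1 (0.0154 and 0.0167), and SCAMP3 and EMSLR for SLC25A12 (0.0139 and 0.0185). The lists of related enzymes and carriers described next hold only a small part of these 10826 genes. None of the 8 neighbours belongs to those lists, and no conclusion is drawn from this.

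Glutamate is the amino donor of the shuttle. Of 16 other tested genes of aspartate, glutamate and alanine metabolism, 4 rose and 0 fell, or 25.0% called, a share near the 27.9% called over all genes. KYAT3, an aminotransferase that acts on kynurenine and glutamine, averaged 44.8 ± 1.82 CPM after β-alanine and 35.9 ± 0.519 CPM in controls (SD, n = 3 each). GLUD1, the matrix glutamate dehydrogenase, rose by a log2 of 0.11 ± 0.04 (SE), and OAT, the ornithine aminotransferase, by 0.13 ± 0.04. The DESeq2 Wald test did not call GLUD1 or OAT, and neither was called when β-alanine library 2, β-alanine library 3, control library 2 or control library 3 was left out, with adjusted p-values of 0.0537 to 0.174 over these fits. Of the 16 genes, 1 rose when control library 2 was left out, and 2 rose when either of β-alanine libraries 2 and 3 was left out or by DESeq2. Of 7 genes that use aspartate for nucleotides, 0 rose and 1 fell, or 14.3% called. This was CAD, the first enzyme of pyrimidine synthesis, with a log2 fold change of -0.13 ± 0.04, and its call was lost when β-alanine library 2, control library 2 or control library 3 was left out (edgeR quasi-likelihood adjusted p = 0.161, 0.0746 and 0.0686).

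In the TCA cycle, which shares MDH2 with the shuttle, 4 of 19 tested genes rose and 4 fell. This made 42.1% called, against 27.9% over all tested genes. Both subunits of the GDP-forming succinyl-CoA synthetase fell. SUCLG1, the shared alpha subunit, averaged 55.9 ± 4.15 CPM after β-alanine and 68.9 ± 2.82 CPM in controls, and SUCLG2, the GDP-specific beta subunit, 44.5 ± 2.49 CPM after β-alanine and 52.3 ± 1.95 CPM in controls (SD, n = 3 each). SUCLA2, the ATP-specific beta subunit, rose, with 49.2 ± 4.35 CPM after β-alanine and 39.7 ± 1.01 CPM in controls. FH, the fumarase that makes malate, averaged 68.0 ± 4.56 CPM after β-alanine and 81.5 ± 1.66 CPM in controls, a log2 fold change of -0.27 ± 0.05 (SE, edgeR quasi-likelihood adjusted p = 0.000442). The calls of these 4 genes held in every alternative tried. DLST also fell and IDH1, DLD and SDHB also rose, and these 4 are named after their values were seen. The number that rose was 7 without β-alanine library 1 and 2 without β-alanine library 2 or control library 2.

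Among 10 tested genes of malate, oxaloacetate and pyruvate, 3 rose and 2 fell, or 50.0% called, against 27.9% over all tested genes. ME1, the cytosolic malic enzyme, had the largest fold change of the named genes and a low level, with 2.71 ± 0.597 CPM after β-alanine and 1.44 ± 0.224 CPM in controls (SD, n = 3 each), a log2 fold change of 0.97 ± 0.21 (SE, edgeR quasi-likelihood adjusted p = 0.00146). MPC2, a subunit of the mitochondrial pyruvate carrier, averaged 62.9 ± 2.95 CPM after β-alanine and 51.4 ± 1.67 CPM in controls. LDHA, which oxidises cytosolic NADH by another route, rose by a log2 of 0.11 ± 0.04, a call lost without β-alanine library 2 or any one control (edgeR quasi-likelihood adjusted p from 0.0653 to 0.198). PC, the pyruvate carboxylase that makes oxaloacetate, had a log2 fold change of -0.28 ± 0.09, with overlapping groups, and its call was lost when β-alanine library 2, β-alanine library 3, control library 1 or control library 2 was left out (edgeR quasi-likelihood adjusted p from 0.068 to 0.194). The other gene that fell was MDH1B, named after its values were seen, and neither fell without any one of these 4 libraries, while 1 gene fell without control library 3. In the glycerol phosphate shuttle, the other main route for cytosolic NADH, GPD2 rose and GPD1 and GPD1L were not called. This made 33.3% called, a share near the 27.9% over all tested genes. GPD2, the mitochondrial glycerol phosphate dehydrogenase, averaged 45.6 ± 1.71 CPM after β-alanine and 37.1 ± 2.24 CPM in controls, a log2 fold change of 0.30 ± 0.06 (SE, edgeR quasi-likelihood adjusted p = 0.000597).

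Of 37 other tested genes of the SLC25 carrier family, 8 rose and 7 fell, with a median log2 fold change of 0.04. This made 40.5% called, against 27.9% over all tested genes. SLC25A44, a carrier of branched-chain amino acids, rose by 0.28 ± 0.05 (SE). SLC25A28, the iron carrier mitoferrin 2, had a log2 fold change of -0.43 ± 0.07, SLC25A39, a glutathione carrier, -0.24 ± 0.05, and SLC25A36, a pyrimidine nucleotide carrier, -0.23 ± 0.04. The number that rose was 4 when β-alanine library 2, β-alanine library 3, control library 1 or control library 3 was left out, 3 in the absence of control library 2, and 5 by DESeq2.

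The aspartate carriers bind calcium. Of 9 tested genes of calcium uptake into mitochondria, 2 rose and 2 fell, or 44.4% called. The shares over all tested genes were 14.1% higher and 13.8% lower. MICU2, a calcium-sensing subunit of the uniporter, averaged 52.6 ± 0.961 CPM after β-alanine and 42.6 ± 0.806 CPM in controls (SD, n = 3 each), a log2 fold change of 0.31 ± 0.05 (SE, edgeR quasi-likelihood adjusted p = 0.000161). MCUR1, a regulator of the uniporter, rose by 0.18 ± 0.045, and MCUB, a subunit that limits the channel, had a log2 fold change of -0.30 ± 0.08. The call of MCUB was lost when β-alanine library 2, β-alanine library 3, control library 1 or control library 2 was left out (edgeR quasi-likelihood adjusted p from 0.0527 to 0.105). No gene of this list fell when β-alanine library 2, control library 1 or control library 2 was left out, and 1 fell without β-alanine library 3.

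Of 10 tested regulators of mitochondrial genes, 2 rose and 2 fell, or 40.0% called, against 27.9% over all tested genes. Whether the share called in any list of related genes differs from that over all genes was not tested. ATF4, a factor of the amino acid response, averaged 157 ± 4.62 CPM after β-alanine and 136 ± 1.14 CPM in controls (SD, n = 3 each), and its call held in every alternative tried. ESRRA, an orphan nuclear receptor for mitochondrial genes, rose by a log2 of 0.26 ± 0.07 (SE), a call lost when β-alanine library 3, control library 2 or control library 3 was left out (edgeR quasi-likelihood adjusted p from 0.0534 to 0.0921). NRF1, nuclear respiratory factor 1, had a log2 fold change of -0.28 ± 0.08, and its call was lost when control library 3 or either of β-alanine libraries 2 and 3 was left out (edgeR quasi-likelihood adjusted p from 0.0503 to 0.121). MYC had a log2 fold change of -0.12 ± 0.04, a call lost in 8 of the 14 alternatives, among them those that leave out β-alanine library 2, β-alanine library 3, control library 1 or control library 2 (adjusted p up to 0.238, edgeR quasi-likelihood). In this list 1 gene rose when β-alanine library 3, control library 2 or control library 3 was left out, 0 fell without β-alanine library 2 or 3, and 1 fell without any one control.

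**Figure D4:**
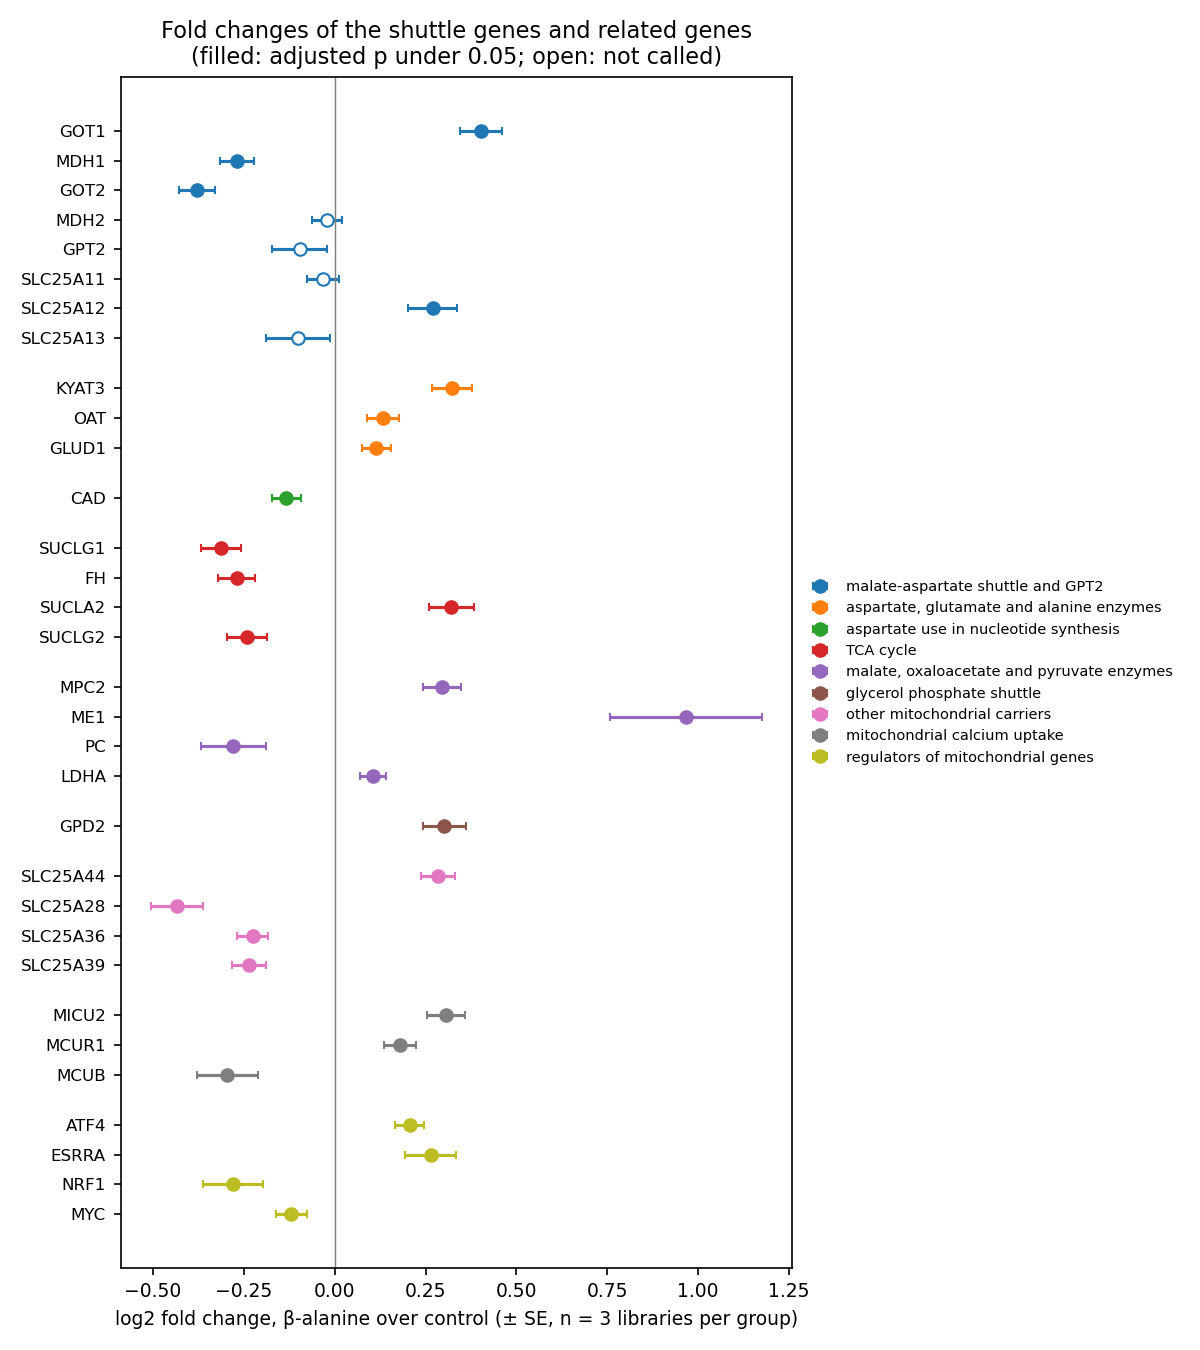
Log2 fold change, β-alanine over control, with its SE, for the 8 genes and for the related genes named in the text, coloured by list. Filled points passed an adjusted p of 0.05 and open points did not; GOT1 and SLC25A12 lie right of 0 and GOT2 and MDH1 left of it, and each related list except those for glutamate enzymes, nucleotides and the glycerol phosphate shuttle holds points on both sides.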

How the data were processed

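Raw counts for each gene symbol were deposited for polyadenylated RNA from 6 libraries, 3 per group, grouped by sample title. The submitters' processing notes name GRCh38, featureCounts 2.0.1, STAR 2.7.3a, Trimmomatic 0.39, DESeq2 and bcl2fastq. Settings, annotation and strandedness are not given there or in the labels.

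Genes were filtered with filterByExpr and scaled by TMM, and all 17331 were fitted with edgeR 4.0.16 (quasi-likelihood, robust, two-sided, no covariate, R 4.3.3), with Benjamini-Hochberg adjustment over all of them. Intervals are 1.96 SE. The biological coefficient of variation was 4.35%. Paralogue ratios used raw counts and scipy 1.17.1. Depth gave each of the 8 genes 242 to 4386 counts per library.

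The members and the 8 lists of related genes were chosen with earlier results of these data known. Named genes are the 8 members, up to 4 called genes per list by smallest p, and the 2 nearest profiles per called member. Some genes of these lists are not reported here. Alternatives were RLE scaling, total counts, other filters, no robust shrinkage, a replicate block, limma-voom 3.58.1, DESeq2 1.42.0 and leaving out each library.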

Additional observations from a re-analysis of the deposited data

How the results depend on the processing

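The calls of GOT1, GOT2, MDH1 and SLC25A12 and their directions held in all 14 alternatives to the edgeR fit, with log2 fold changes of 0.36 to 0.44 for GOT1, -0.42 to -0.36 for GOT2, -0.33 to -0.23 for MDH1 and 0.23 to 0.30 for SLC25A12. The weakest was SLC25A12 without control library 3 (edgeR quasi-likelihood adjusted p = 0.0413). Of 112 values for the 8 genes, 111 kept their direction and their side of the threshold. The exception was GPT2 without β-alanine library 1, so that 3 of the 8 genes fell in that fit. Over all genes, leaving out one library gave 1501 to 3204 genes that rose and 1473 to 3294 that fell, with the lowest counts without β-alanine library 2 (1501 and 1473) and the next lowest without control library 2 (1570 and 1488) and the highest without β-alanine library 1 (3204 and 3294). The cause was not tested. The 26 related genes chosen by the rule kept their direction in all 364 values, and 46 of these lost the call.

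The deviations of same-numbered libraries from their group means correlated at 0.05, 0.0037 and 0.07. For libraries with different numbers the correlations ran from -0.07 to 0.008. Whether the replicate numbers pair the libraries was not tested. With the replicate block, the log2 fold changes were 0.40 for GOT1, -0.38 for GOT2, -0.27 for MDH1 and 0.27 for SLC25A12, with 2564 genes rising and 2608 falling in all, and 2 of the 7 nucleotide genes fell instead of 1. The paired differences of the ratios GOT1 over GOT2, MDH1 over MDH2 and SLC25A12 over SLC25A13 were 0.77, -0.24 and 0.39 (exact sign-flip test, p = 0.25 for each, the smallest that 3 pairs allow). Leaving out one library gave 0.72 to 0.85, -0.31 to -0.19 and 0.32 to 0.43 for these ratios.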
